A study of Mus musculus with 12 samples.

Results

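The loci of 9 Toll-like receptor genes (Tlr1, Tlr2, Tlr3, Tlr4, Tlr5, Tlr6, Tlr7, Tlr9 and Tlr13) and of the co-receptor gene Cd14 were described by their chromatin accessibility in macrophages of mouse brain tumours. Members were all regions of the deposited count table (mm10) that overlap the span of one of these genes or its flanks of 5 kb. This gave 54 of 117835 regions, at 10 of the 16304 protein-coding genes with a region. Of the 54 regions, 38 overlapped a gene span and 16 lay in a flank alone, and their widths ran from 14 to 1179 bp with a median of 207 bp. A filter on low counts left 46 regions for testing, so that 8 regions carry no test. Regions are numbered along the chromosome within each locus, and a locus is the sum of its regions. The region names record the groups whose peaks were joined: 20 of the 54 name all 4 groups, 18 name MDM alone and 5 name MG alone, with MDM holding the deepest libraries. The regions left untested were Tlr1 regions 3 and 4, Tlr6 region 5, Tlr7 regions 1, 8 and 10 and Tlr13 regions 6 and 8.

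Toll-like receptors are membrane proteins of innate immune cells that bind molecules of microbes or of damaged cells and signal through adaptors such as MyD88 and TRIF to NF-kB and interferon regulatory factors. Tlr2 pairs with Tlr1 or Tlr6 to bind lipoproteins, Tlr4 works with Cd14 to sense lipopolysaccharide, and Tlr5 binds flagellin, all at the cell surface. Tlr3, Tlr7, Tlr9 and Tlr13 act in endosomes, where they bind double-stranded RNA, single-stranded RNA, unmethylated CpG DNA and bacterial ribosomal RNA. In mouse glioma, Tlr2 of microglia is known for its part in the induction of matrix metalloproteases. ATAC-seq, in which the Tn5 transposase inserts adapters into open DNA, reports accessibility and not expression, which was not measured here.

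All cells were sorted from brain tumours of mice that lack Ink4a/Arf and carry PDGFB, which the study placed in Nestin-positive progenitor cells. No age is stated in these sources. The 4 groups, of 3 libraries each, were lipid-laden microglia (LL-MG), microglia without lipid load (MG), lipid-laden monocyte-derived macrophages (LL-MDM) and monocyte-derived macrophages without lipid load (MDM). Microglia are the resident macrophages of the brain, and monocyte-derived macrophages enter a tumour from the blood. Groups were taken from the column names, and for 8 of the 12 libraries the sample title names another group.

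The lineage in the column names was checked against 2 lineage genes. The lipid load in the names was not checked. Sall1, a transcription factor of microglia, had 66.0, 88.0 and 67.3 CPM in LL-MG, 74.2, 39.8 and 52.8 CPM in MG, 11.9, 9.79 and 6.19 CPM in LL-MDM and 0.868, 1.07 and 0.488 CPM in MDM, where CPM is the count scaled to a common library size with TMM factors. By column name, the 6 microglial libraries were all above the 6 monocyte-derived ones. Itga4, an integrin of monocyte-derived cells, spanned 42.1 to 57.1 CPM in LL-MG and 39.9 to 51.2 CPM in MG, while LL-MDM had 80.4 to 85.2 CPM and MDM had 112 to 138 CPM. Region totals ran from 1162969 counts (LL-MDM 1) to 18938222 counts (MDM 2). MG 2 and MG 3 stand apart from MG 1, and results that rest on them are given with and without them. Leaving out both was chosen after seeing the data and leaves 1 MG library. The p-values of that fit hold no spread between MG libraries. The X chromosome, which holds Tlr7 and Tlr13, had between 1.25% and 1.45% of the counts in every library. In bulk samples, fewer cells of a type and lower accessibility per cell cannot be told apart.

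The 250 bases before the gene start are shown for 4 members whose start lies in a region that was tested: Tlr2 and Tlr9, whose start regions differed with lipid load in microglia, and Tlr3 and Tlr13, whose start regions were not called in any comparison. Sequences are from RefSeq (GRCm38.p6), 5′ to 3′ on the gene's strand, and capitals mark motif matches found on either strand. The windows are chr3:83841609-83841858, minus strand, for Tlr2, chr8:45410381-45410630, minus strand, for Tlr3, chr9:106222348-106222597, plus strand, for Tlr9, and chrX:106143025-106143274, plus strand, for Tlr13.
Tlr2: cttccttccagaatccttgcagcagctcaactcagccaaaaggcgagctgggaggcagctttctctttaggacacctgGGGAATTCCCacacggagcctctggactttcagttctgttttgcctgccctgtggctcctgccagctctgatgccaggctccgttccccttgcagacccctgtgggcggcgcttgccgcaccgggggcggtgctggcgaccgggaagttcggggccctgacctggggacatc
Tlr3: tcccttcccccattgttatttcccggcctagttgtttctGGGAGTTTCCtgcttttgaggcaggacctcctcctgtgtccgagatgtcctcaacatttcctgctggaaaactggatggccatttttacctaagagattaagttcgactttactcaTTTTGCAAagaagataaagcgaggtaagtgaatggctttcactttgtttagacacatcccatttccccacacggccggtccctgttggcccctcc
Tlr9: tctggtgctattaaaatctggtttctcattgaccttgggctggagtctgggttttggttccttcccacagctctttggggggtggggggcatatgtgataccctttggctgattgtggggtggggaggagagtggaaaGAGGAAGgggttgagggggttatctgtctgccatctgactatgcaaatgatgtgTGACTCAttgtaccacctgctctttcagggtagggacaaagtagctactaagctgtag
Tlr13: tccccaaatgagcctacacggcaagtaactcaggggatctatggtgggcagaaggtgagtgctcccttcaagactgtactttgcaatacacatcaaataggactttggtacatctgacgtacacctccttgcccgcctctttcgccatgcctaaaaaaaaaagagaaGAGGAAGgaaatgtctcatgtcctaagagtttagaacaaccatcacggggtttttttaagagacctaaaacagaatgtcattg

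The Tlr2 window holds a match to the NF-kB consensus from -172 to -163, counted from the gene start. The Tlr3 window holds an NF-kB consensus match from -211 to -202 and a C/EBP match (TTGCNNAA) from -95 to -88. The Tlr9 window holds the PU.1 core (GAGGAAG) from -112 to -106 and an AP-1 match (TGANTCA) from -58 to -52, and the Tlr13 window the PU.1 core from -83 to -77. None of these matches overlap. Of all 32851 upstream windows of the same length, 5.00% hold the NF-kB consensus, 9.56% the C/EBP motif, 10.6% the PU.1 core and 6.75% the AP-1 motif. PU.1 is the lineage factor of macrophages, and NF-kB and AP-1 are factors that Toll-like receptor signalling activates. The matches describe these letters and were not tested as binding sites.

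Among the members, the Tlr9, Tlr2, Tlr6 and Cd14 loci were the most accessible per covered kb, with means over the 12 libraries of 68.3, 66.9, 60.5 and 60.4 CPM per kb. Tlr4 followed at 43.0 CPM per kb, below Cd14 in 12 of 12 libraries. Then came Tlr5 (26.0), Tlr13 (21.5), Tlr7 (19.4), Tlr3 (18.8) and Tlr1 (11.7 CPM per kb), with Tlr1 below Tlr3 in 12 of 12 libraries. The order differed between groups: Tlr9 stood above Tlr2 in 4 of 12 libraries, and Tlr2 had the higher mean in LL-MG (94.4 CPM per kb for Tlr2 and 81.3 for Tlr9), MG (60.6 and 55.0) and LL-MDM (67.8 and 64.2), against 44.7 and 72.7 CPM per kb in MDM. In MDM, Tlr5 (36.3 CPM per kb) also exceeded Tlr4 (34.7 CPM per kb). Neighbours within the top 4 changed places between libraries, Tlr6 standing above Cd14 in 6 of 12, and so did Tlr5, Tlr13, Tlr7 and Tlr3 among themselves.

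**Figure D1:**
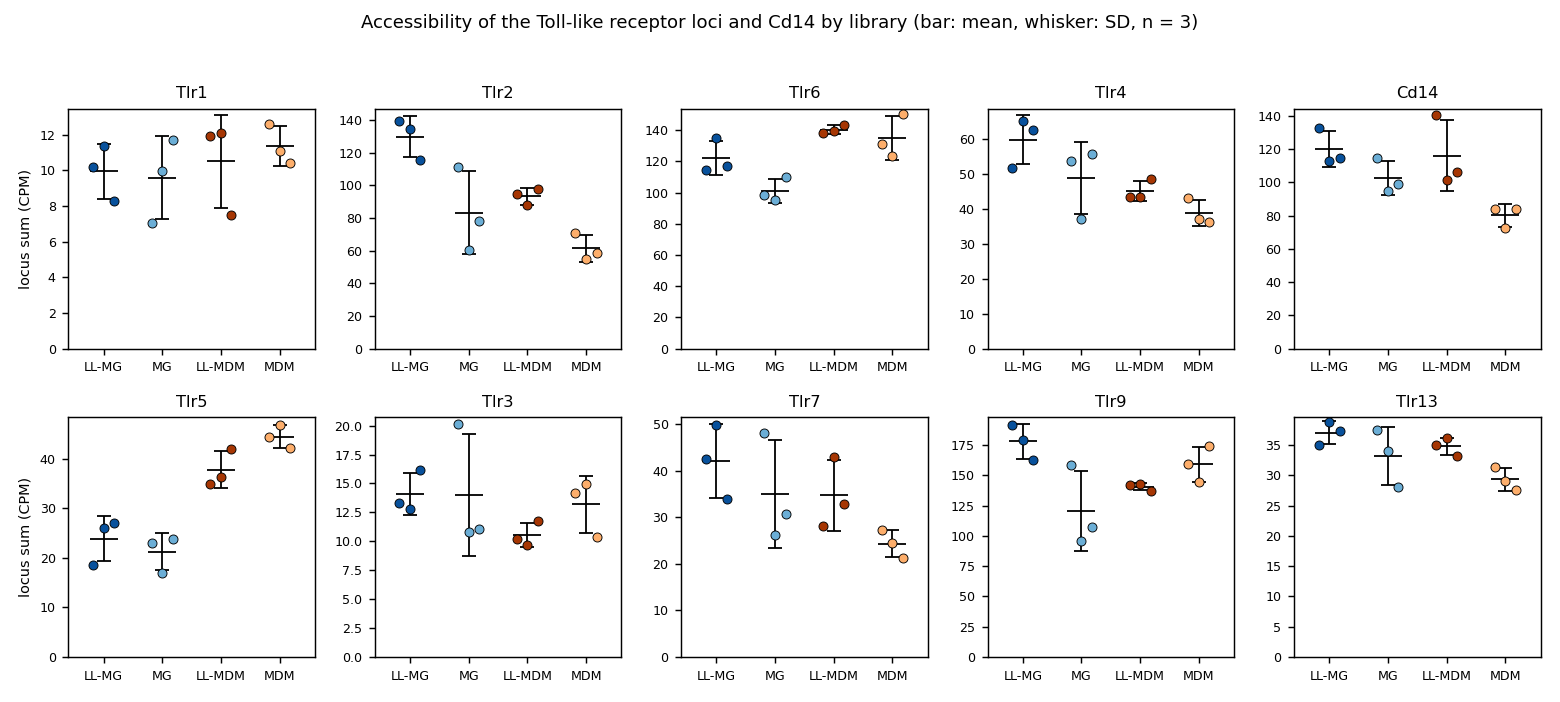
Accessibility of each locus in CPM (y axis, from 0) in the 3 libraries of LL-MG, MG, LL-MDM and MDM (points), with the mean as a bar and the SD as a whisker. Tlr5 lies lower in the 6 microglial libraries than in the 6 monocyte-derived ones, and Tlr2 is highest in LL-MG and lowest in MDM.

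Microglia were set against monocyte-derived macrophages to show how the 2 lineages differ at these loci. Without lipid load, 26 of the 46 tested regions differed between MG and MDM by edgeR's quasi-likelihood test (14 higher and 12 lower in MG), where 51.7% of all tested regions were called, 26.8% as higher and 24.9% as lower. Log2 fold changes are given with their standard error and with p-values adjusted by Benjamini-Hochberg over all regions or loci tested. Losses named beside a call are mainly those on leaving out 1 library. They were followed for loci and for the named regions alone, whose choice is given with the processing. DESeq2, thinning and other settings ended further calls, which are counted at the end. The median log2 fold change of the 46 regions was 0.13, against 0.07 over all tested regions. Of the 10 loci 4 were called, where 41% of all loci were, 20.4% as higher and 20.6% as lower: Cd14 was higher in MG, and Tlr5, Tlr6 and Tlr9 were lower. With the scaling factors of the region table, 8 loci were called, 5 of them higher, and with unscaled totals 7 were called, 4 of them higher, so that the number of higher loci depends on the scaling. The shares of all loci called with these scalings are not given here. Between the lipid-laden groups, 6 of the 46 regions differed between LL-MG and LL-MDM (3 higher and 3 lower), where 21.5% of all tested regions were called, 10.3% as higher and 11.2% as lower, and 1 locus, Tlr5, was lower, where 20.5% of all loci were called, 12.1% as higher and 8.43% as lower. Of the 12 regions lower in MG than in MDM, 3 were among the 3 lower in LL-MG than in LL-MDM, and of the 14 higher in MG, 1 was among the 3 higher in LL-MG. The share of all tested regions called alike in both comparisons is not given here, so this overlap is not shown to be particular to the members. Without MG 2 and MG 3, which leaves 1 MG library, some of the named regions lost their calls in MG against MDM. They were Tlr1 region 1 (-0.63), Tlr5 regions 1 and 3 (-0.76 and -0.70), Tlr6 region 1 (-0.49), Tlr9 regions 3 and 4 (0.48 and -0.10) and Tlr13 regions 4 and 5 (0.61 and 1.22). The called regions that are not among the named ones were not followed there.

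Lipid-laden cells were set against cells of the same lineage without lipid load. In monocyte-derived macrophages, 15 of the 46 regions differed between LL-MDM and MDM, 12 higher and 3 lower in LL-MDM, where 29.5% of all tested regions were called, 15.4% as higher and 14.1% as lower. The Cd14, Tlr2 and Tlr7 loci were higher in LL-MDM, 3 of the 10 loci, where 23.9% of all loci were called, 11.7% as higher and 12.2% as lower. In microglia, 3 regions were higher in LL-MG than in MG, where 12.2% of all tested regions were called, 4.22% as higher and 8.01% as lower. At the level of loci Tlr2 and Tlr9 were higher in LL-MG, where 18.5% of all loci were called, 9.82% as higher and 8.63% as lower. The count in monocyte-derived macrophages was 6 regions without LL-MDM 2, the deepest LL-MDM library. The share of all regions called without a library is not given here, so such changes are not shown to be particular to the members. The microglial count rests on several libraries: no region was called without MG 2, MG 3 or LL-MG 1, 1 was called without LL-MG 2, and 5 without MDM 2 and 8 without MG 1. Without both MG 2 and MG 3, a setting chosen after seeing the data, edgeR called 0 regions and 0 loci in microglia, with 3 regions and 1 locus at an unadjusted p under 0.05. MG and LL-MDM were both compared with the same 3 MDM libraries, so these comparisons are not independent.

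Markers of some other cell types also differed between these groups. Of all loci, 20.4% were called higher and 20.6% lower in MG against MDM. The shares were 11.7% and 12.2% in LL-MDM against MDM, and 9.82% and 8.63% in LL-MG against MG. The list of 9 microglial markers was higher in LL-MDM than in MDM for 4 of 9 genes, and its summed level was 380.3 to 405 CPM in the LL-MDM libraries, against 325 to 351 CPM in the MDM libraries. The list of monocyte-derived markers was lower for 4 of 7 tested genes (311 to 329.9 CPM in LL-MDM, against 538 to 567 CPM in MDM). Markers of conventional dendritic cells were lower in LL-MDM than in MDM for 5 of 6 genes and lower in MG than in MDM for 4 of 6. They summed to 387 to 427 CPM in MG, to 407 to 441 CPM in LL-MDM, and in the MDM libraries to 609.8 to 679 CPM. Markers of plasmacytoid dendritic cells, a cell type rich in Tlr7 and Tlr9, were lower in MG than in MDM for 4 of 5 genes (546 to 602 CPM in MG and 783 to 821 CPM in MDM), and lower in LL-MDM than in MDM for 2 of 5 (634 to 688 CPM in LL-MDM). In LL-MG, 3 of these 5 genes were higher and 1 lower than in MG, and 2 of 5 astrocyte markers were higher (227 to 244 CPM in LL-MG and 149.7 to 194 CPM in MG), as were 2 of 6 tested markers of the oligodendrocyte lineage and tumour (312 to 343 CPM in LL-MG and 283 to 296 CPM in MG). Other lists had fewer calls. In LL-MDM against MDM, 0 of 6 tested neutrophil markers were called, and 1 of 6 B cell, 1 of 5 T and NK cell and 1 of 3 endothelial markers were lower. In MG against MDM, 2 of 6 neutrophil, 2 of 5 T and NK cell and 1 of 3 endothelial markers were lower. B cell markers split there into 1 higher and 1 lower, and astrocyte markers into 2 and 2. No marker with a region on these lists was at 0 in every library, and their part in the results was not tested.

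**Figure D2:**
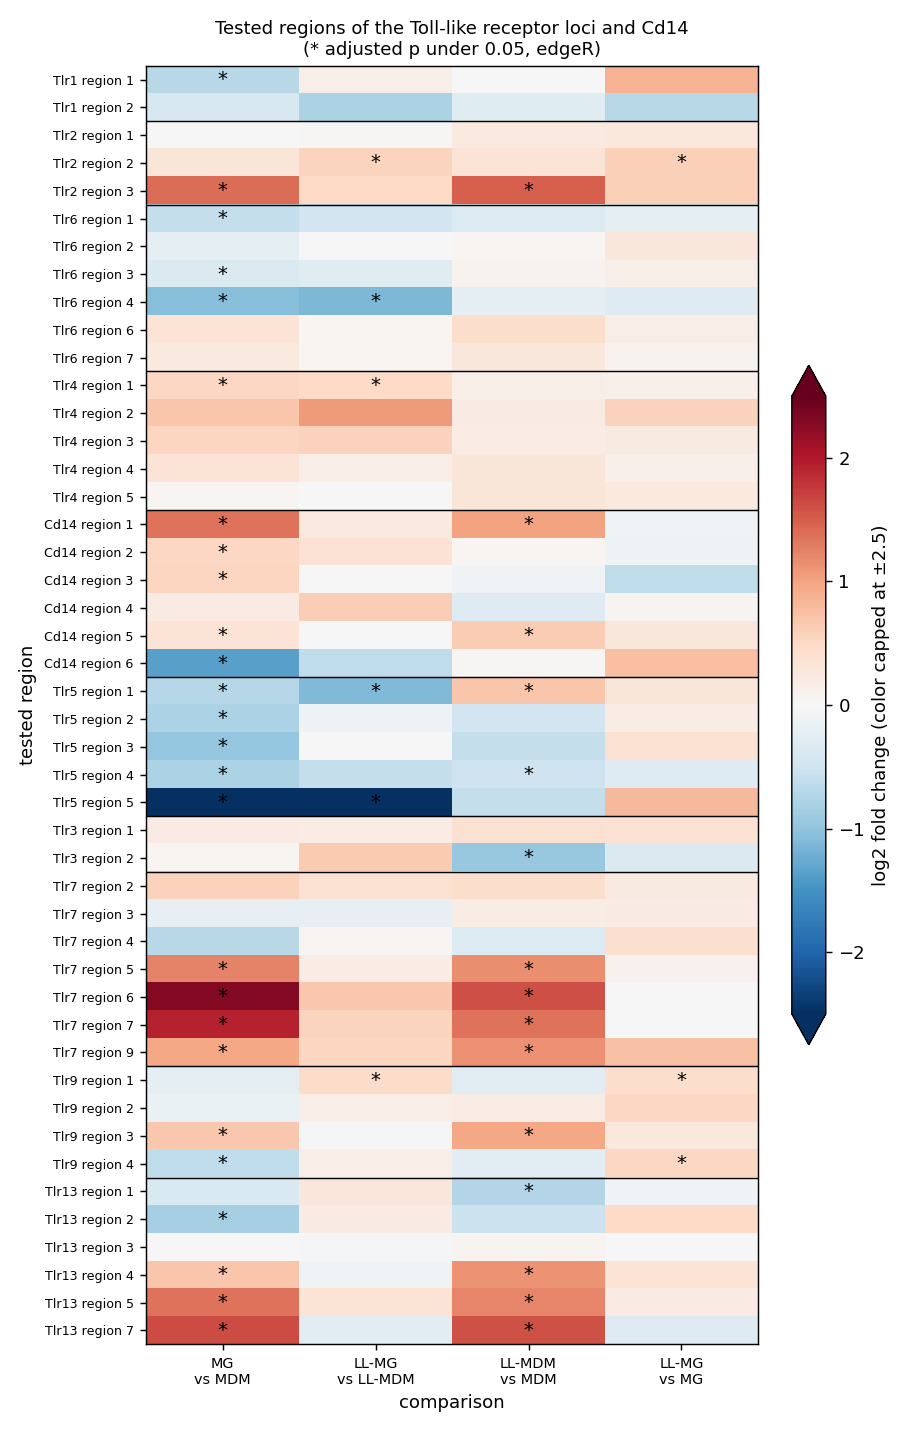
Log2 fold change (color, capped at 2.5 either way) of the 46 tested regions (rows, grouped by locus) in 4 comparisons (columns), with an asterisk where the adjusted p is under 0.05. Calls are frequent in MG against MDM (26) and LL-MDM against MDM (15) and few between the lipid-laden groups (6) and in LL-MG against MG (3).

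Tlr2, the shared partner of the lipoprotein receptors, had 3 regions, and its 2 strongest differed in their comparisons with MDM. Region 3, chr3:83844819-83845088, lies in the flank with its centre at -3346 bp from the gene start, where negative positions are upstream. It had 45.4, 48.1 and 35.4 CPM in LL-MG, 35.1, 19.7 and 32.4 CPM in MG, 28.8, 28.6 and 33.4 CPM in LL-MDM and 13.3, 8.26 and 10.8 CPM in MDM. The 3 MDM libraries were the lowest of the 12, below all 9 others, and the 3 LL-MG libraries were the highest, just above MG 1. LL-MG exceeded MG there by 0.59 ± 0.20, which missed the threshold (adjusted p = 0.0527). Region 3 was higher in MG than in MDM (log2 fold change 1.40 ± 0.20, adjusted p = 1.89e-06) and higher in LL-MDM than in MDM (1.50 ± 0.20, adjusted p = 5.06e-06), and both calls held under every alternative other than the groups by title. Region 2, chr3:83841104-83841856, covers the gene start and nearly all of the printed window, and had 66.2, 61.6 and 60.4 CPM in LL-MG, 56.7, 34.7 and 36.6 CPM in MG, 46.6, 39.2 and 44.5 CPM in LL-MDM and 38.3, 29.1 and 33.8 CPM in MDM. Against MDM, region 2 missed the threshold in MG (0.31 ± 0.15, adjusted p = 0.0798) and in LL-MDM (0.34 ± 0.15, adjusted p = 0.0947). The 3 LL-MG libraries were again the highest of the 12. MG 1 came close to LL-MG, while MG 2 and MG 3 lay within the range of MDM. Region 2 was higher in LL-MG than in LL-MDM (0.56 ± 0.16, adjusted p = 0.0113) and than in MG (0.59 ± 0.16, adjusted p = 0.0144). The first of these calls was lost without LL-MG 1 (0.54) or LL-MDM 2 (0.50), and the second without LL-MG 1 (0.58), MG 2 (0.48) or MG 3 (0.53). Without MG 2 and MG 3 together the difference between LL-MG and MG was 0.14, adjusted p = 0.89.

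Over the whole Tlr2 locus the levels were 139, 134 and 116 CPM in LL-MG, 111, 60.4 and 78.4 CPM in MG, 94.6, 87.6 and 97.4 CPM in LL-MDM and 70.7, 54.9 and 58.5 CPM in MDM. LL-MG stood above MG (0.68 ± 0.18, adjusted p = 0.028) and LL-MDM above MDM (0.59 ± 0.18, adjusted p = 0.0332), with no overlap between libraries in either pair. MG and MDM overlapped, and their difference missed the threshold (0.39 ± 0.17, adjusted p = 0.0948). The call in microglia was lost without LL-MG 1 (0.62), LL-MG 2 (0.65) or MG 3 (0.64), and was 0.20, adjusted p = 0.706 without MG 2 and MG 3. The call in monocyte-derived macrophages was lost without LL-MDM 1 (0.58), LL-MDM 2 (0.65), LL-MDM 3 (0.56), MDM 2 (0.51) or MDM 3 (0.56), and, with the gene span alone, the difference was 0.28, adjusted p = 0.228.

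Tlr1 and Tlr6, the partners of Tlr2, showed no call with lipid load at a region or locus. The closest to the threshold were the Tlr6 locus (0.27 ± 0.09, adjusted p = 0.0505) and Tlr1 region 1 (0.87 ± 0.30, adjusted p = 0.0542). Both values are for LL-MG against MG, whose libraries did not overlap there. Tlr1 was the least accessible member, at 9.94 ± 1.56, 9.58 ± 2.34, 10.5 ± 2.61 and 11.4 ± 1.12 CPM in LL-MG, MG, LL-MDM and MDM (SD, n = 3 each), and the groups overlapped. Its region 1, chr5:64922898-64923307, which lies beyond the gene's far end at 9596 bp from the start, was lower in MG than in MDM (-0.70 ± 0.26, adjusted p = 0.0222), and not called without MG 3 (-0.62) or MDM 3 (-0.63). Tlr1 region 2, at the gene start, was not called in any comparison. The Tlr6 locus was lower in MG than in MDM (-0.41 ± 0.09, adjusted p = 0.000562), with 114, 135 and 117 CPM in LL-MG, 98.5, 95.2 and 109.7 CPM in MG, 138, 139.5 and 144 CPM in LL-MDM and 131, 124 and 151 CPM in MDM. Regions 5, 6 and 7 of Tlr6 also lie in the locus of Fam114a1. Without shared regions the Tlr6 difference was -0.54, adjusted p = 0.000311. Its strongest region, region 3 (chr5:64960824-64961515), had 56.3, 60.0 and 72.1 CPM in MG and 78.2, 72.5 and 93.6 CPM in MDM, and was lower in MG (-0.36 ± 0.12, adjusted p = 0.0125). Beside it, region 4 (chr5:64961599-64961763) had 3.89, 3.59 and 4.16 CPM in LL-MG, 3.19, 4.75 and 6.30 CPM in MG, 9.31, 8.78 and 7.85 CPM in LL-MDM and 9.42, 8.62 and 13.2 CPM in MDM. All 6 microglial libraries lay below all 6 monocyte-derived ones at region 4, which was lower in MG than in MDM (-1.06 ± 0.24, adjusted p = 0.000427) and in LL-MG than in LL-MDM (-1.13 ± 0.32, adjusted p = 0.00939). Both calls were lost after thinning to the smallest library, and the second also without LL-MG 2 (-1.06) or LL-MDM 2 (-1.06). Region 1 of Tlr6, at 292 bp, was lower in MG (-0.59 ± 0.23, adjusted p = 0.0283), lost without MG 2 (-0.60), MG 3 (-0.57), MDM 1 (-0.63) or MDM 3 (-0.56). Loess offsets, no filter on low counts, DESeq2 and thinning also ended that call. Region 2 of Tlr6, nearest the start, passed no test.

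Tlr4, the receptor for lipopolysaccharide, was more accessible in microglia at 1 region. Region 1 (chr4:66827428-66827887), the strongest of 5 that overlap the gene span, crosses the low-coordinate end of the span. It had 26.8, 27.4 and 32.6 CPM in LL-MG, 28.0, 24.2 and 27.8 CPM in MG, 16.9, 21.8 and 20.9 CPM in LL-MDM and 19.4, 18.4 and 17.6 CPM in MDM. All 6 microglial libraries were above all 6 monocyte-derived ones. Region 1 was higher in MG than in MDM (0.51 ± 0.14, adjusted p = 0.00329) and in LL-MG than in LL-MDM (0.49 ± 0.17, adjusted p = 0.032). Both calls were lost after thinning to the smallest library, and the second also without LL-MG 3 (0.45), LL-MDM 1 (0.46), LL-MDM 2 (0.61) or LL-MDM 3 (0.52). The other 4 regions of Tlr4 were not called in any comparison, and the locus missed the threshold between MG and MDM (0.29 ± 0.13, adjusted p = 0.0751) and between LL-MG and LL-MDM (0.41 ± 0.15, adjusted p = 0.0605). Lipid load gave 0.21 ± 0.14 in monocyte-derived macrophages and 0.32 ± 0.14 in microglia for the Tlr4 locus, neither of them called.

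Cd14, which hands lipopolysaccharide to Tlr4, was lowest in MDM. The locus had 132, 113 and 114 CPM in LL-MG, 114, 94.9 and 98.9 CPM in MG, 141, 101 and 106 CPM in LL-MDM and 83.9, 72.3 and 84.1 CPM in MDM, and all 3 MDM libraries lay below all 9 others. It was higher in MG than in MDM (0.35 ± 0.10, adjusted p = 0.00948), a call lost without MDM 2 (0.28), after thinning to the smallest library (0.29, adjusted p = 0.137) and with the gene span alone (0.25, adjusted p = 0.103), and higher in LL-MDM than in MDM (0.48 ± 0.11, adjusted p = 0.00273), a call that held under every alternative other than the groups by title. Region 1 of Cd14 (chr18:36719931-36720306), in the flank at the low-coordinate side, had 27.2, 18.4 and 25.3 CPM in LL-MG, 24.1, 28.0 and 23.8 CPM in MG, 23.7, 19.4 and 18.6 CPM in LL-MDM and 10.9, 9.30 and 9.31 CPM in MDM. Its MDM libraries were again below the 9 others, with 1.37 ± 0.17, adjusted p = 2.38e-08 for MG over MDM and 1.01 ± 0.18, adjusted p = 4.51e-05 for LL-MDM over MDM. Region 5 (chr18:36726242-36726933), the strongest of the locus, had 67.0, 64.7 and 57.9 CPM in LL-MG, 59.5, 46.2 and 50.6 CPM in MG, 77.0, 53.8 and 65.1 CPM in LL-MDM and 41.3, 35.5 and 46.4 CPM in MDM. LL-MDM exceeded MDM there (0.63 ± 0.14, adjusted p = 0.000625), while MG and MDM overlapped, and their difference (0.34 ± 0.13, adjusted p = 0.0317) was called in few alternatives. It was lost without any single library but MG 2 and MDM 3 (values from 0.18 to 0.34). Regions 2 and 3, inside the span, were higher in MG than in MDM (0.53 ± 0.20, adjusted p = 0.0241 and 0.54 ± 0.22, adjusted p = 0.0394). Whether these calls held in the alternatives was not followed. Region 4 was not called in any comparison. Region 6 (chr18:36727758-36727889), in the other flank, went against the rest of the locus, with 2.83, 1.47 and 3.73 CPM in MG against 7.33, 6.65 and 5.39 CPM in MDM (-1.36 ± 0.32, adjusted p = 0.00068).

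**Figure D3:**
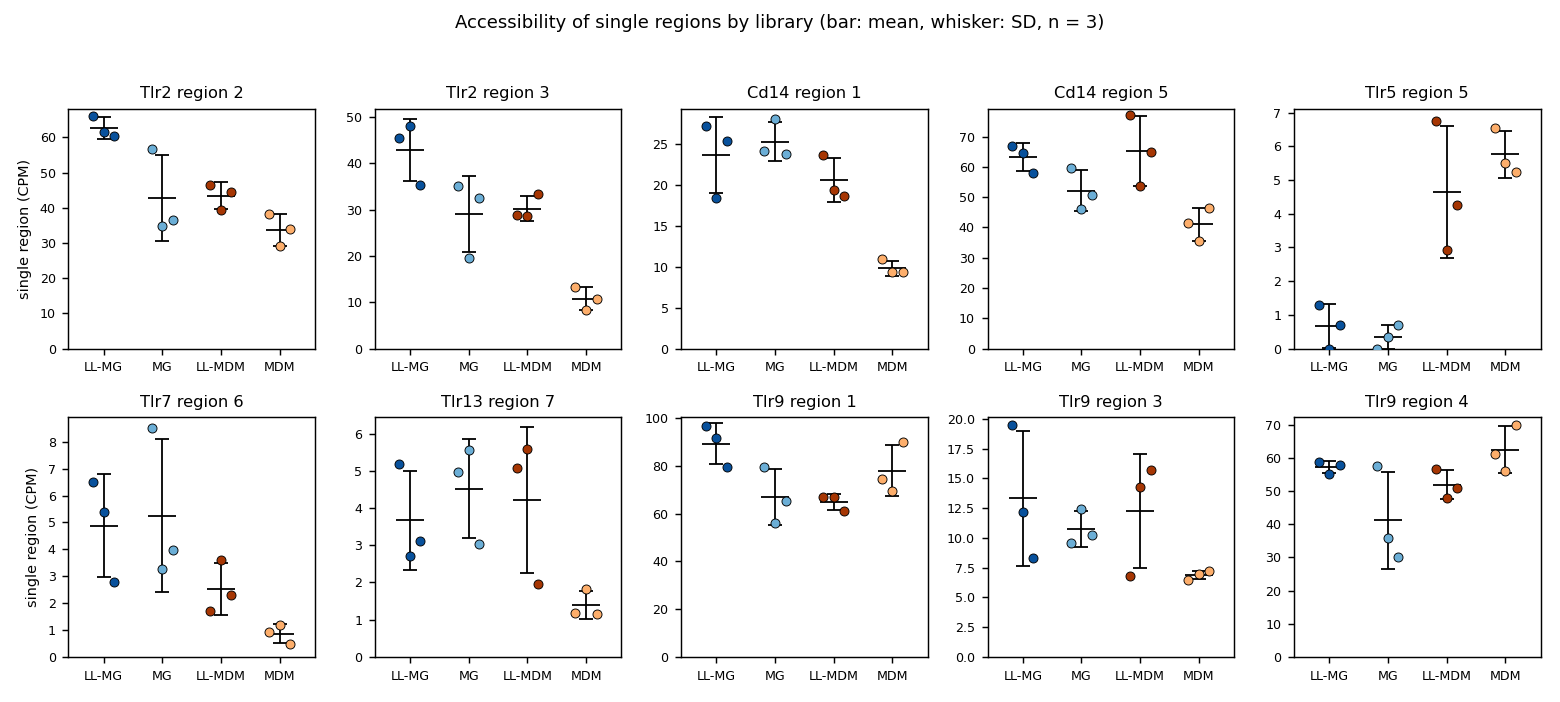
Accessibility of 10 single regions in CPM (y axis, from 0) in the 3 libraries of LL-MG, MG, LL-MDM and MDM (points), with the mean as a bar and the SD as a whisker. The MDM libraries lie below the 9 others at Tlr2 region 3, Cd14 region 1, Tlr7 region 6 and Tlr13 region 7, and the microglial libraries are near 0 at Tlr5 region 5. At Tlr7 region 6, LL-MDM 1 lies below the 2.54 CPM of 3 counts.

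Tlr5, the flagellin receptor, showed the largest lineage difference of the 10 loci. The locus had 18.6, 26.0 and 27.0 CPM in LL-MG, 23.0, 17.0 and 23.8 CPM in MG, 34.9, 36.4 and 42.0 CPM in LL-MDM and 44.4, 46.9 and 42.3 CPM in MDM. All 6 microglial libraries lay below all 6 monocyte-derived ones, with -1.10 ± 0.14, adjusted p = 1.38e-06 for MG over MDM and -0.67 ± 0.16, adjusted p = 0.00572 for LL-MG over LL-MDM. The call between the lipid-laden groups was lost after thinning to the smallest library. All 5 tested regions of Tlr5 were lower in MG than in MDM. Region 5 (chr1:182961882-182962073), inside the span at 7190 bp from the start, was nearly closed in microglia, with 1.30, 0 and 0.694 CPM in LL-MG, 0, 0.328 and 0.700 CPM in MG, 6.77, 2.93 and 4.25 CPM in LL-MDM and 6.56, 5.50 and 5.23 CPM in MDM. The counts behind it were 5 in LL-MG, 5 in MG, 43 in LL-MDM and 232 in MDM, summed over libraries. A count of 0 allows up to 3 counts, or 1.06 CPM in MG 1 and 1.35 CPM in LL-MG 2, counting error alone. Region 5 was lower in MG than in MDM (-3.87 ± 0.48, adjusted p = 4.53e-08) and in LL-MG than in LL-MDM (-2.48 ± 0.61, adjusted p = 0.00289), both calls holding under every alternative that gave a value other than the groups by title. Region 4 (chr1:182959944-182960382), the strongest, had 9.21, 9.01 and 11.4 CPM in MG and 16.7, 17.8 and 16.5 CPM in MDM (-0.79 ± 0.19, adjusted p = 0.000875).

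Upstream of Tlr5, region 1 (chr1:182951392-182951626, at -3279 bp) had 3.89, 5.39 and 7.98 CPM in LL-MG, 4.61, 3.77 and 6.06 CPM in MG, 11.8, 10.6 and 16.0 CPM in LL-MDM and 6.98, 8.46 and 7.84 CPM in MDM. The LL-MDM libraries were the highest of the 12 there. It was higher in LL-MDM than in MDM (0.70 ± 0.23, adjusted p = 0.019) while region 4 was lower (-0.51 ± 0.20, adjusted p = 0.0453), so that regions of the Tlr5 locus moved in opposite directions with lipid load. The call of region 1 was lost without LL-MDM 3 (0.50), MDM 1 (0.61), MDM 2 (0.76) or MDM 3 (0.70), and that of region 4 without any of 8 single libraries (values from -0.59 to -0.46). The Tlr5 locus sum did not pass the test between LL-MDM and MDM (-0.23 ± 0.13, adjusted p = 0.223). Region 1 was also lower in LL-MG than in LL-MDM (-1.10 ± 0.29, adjusted p = 0.00503), lost without LL-MG 1 (-0.87) or LL-MDM 3 (-0.89), and lower in MG than in MDM (-0.71 ± 0.25, adjusted p = 0.0187), lost without MG 2 (-0.52) or MDM 2 (-0.69).

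Among the endosomal receptors, Tlr3, which binds double-stranded RNA, had 2 regions and 1 call. Region 1 (chr8:45410192-45410430), which overlaps the printed window, was not called in any comparison, at 6.46 ± 1.79 CPM in LL-MG, 5.10 ± 1.19 CPM in MG, 6.06 ± 0.803 CPM in LL-MDM and 4.24 ± 1.24 CPM in MDM (SD, n = 3 each). Region 2 (chr8:45415049-45415498, at -4894 bp) had 3.39, 4.26 and 5.56 CPM in LL-MDM against 9.63, 8.98 and 7.35 CPM in MDM. The libraries did not overlap and the region was lower in LL-MDM (-0.95 ± 0.28, adjusted p = 0.0088), but not without LL-MDM 2 (-0.86). The Tlr3 locus sum was not called in any comparison, while its regions changed unequally between LL-MDM and MDM (diffSpliceDGE of edgeR, adjusted p = 0.00471).

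Tlr7, the receptor for single-stranded RNA on the X chromosome, had 10 regions, of which 7 were tested, and 4 near the high-coordinate end of the span were lowest in MDM. Region 5 (chrX:167328654-167328915), the most accessible, had 13.0, 11.7 and 6.59 CPM in LL-MG, 13.8, 8.03 and 7.93 CPM in MG, 9.31, 9.45 and 8.18 CPM in LL-MDM and 3.77, 4.47 and 3.59 CPM in MDM. Region 6 (chrX:167328953-167329105) had 6.49, 5.39 and 2.77 CPM in LL-MG, 8.50, 3.28 and 3.96 CPM in MG, 1.69, 3.59 and 2.29 CPM in LL-MDM and 0.908, 1.19 and 0.490 CPM in MDM. At both regions the 3 MDM libraries were below the 9 others. The value of LL-MDM 1 at region 6 rests on few reads, since 3 counts are 2.54 CPM in that library. Region 5 was higher in MG than in MDM (1.25 ± 0.25, adjusted p = 7.83e-05) and in LL-MDM than in MDM (1.16 ± 0.26, adjusted p = 0.000808), and both calls held under every alternative other than the groups by title. Region 6 gave the largest rise in MG of any tested member region (2.30 ± 0.38, adjusted p = 5.8e-06) and was higher in LL-MDM (1.60 ± 0.43, adjusted p = 0.00463), the second call being lost without LL-MDM 2 (1.12). Regions 7 and 9 followed, with 1.93 ± 0.38 and 0.97 ± 0.31 for MG over MDM and 1.36 ± 0.43 and 1.15 ± 0.31 for LL-MDM over MDM, all 4 called. Region 7 in LL-MDM overlapped MDM and was not called without LL-MDM 2 (0.61), MDM 1 (1.28), MDM 2 (1.40) or MDM 3 (1.28). Regions 2, 3 and 4, farther inside the span, were not called in their own level, though regions 3 and 4 differed from the rest of the locus in the test of unequal change (-1.11, adjusted p = 0.00469 and -1.59, adjusted p = 9.43e-05, in MG against MDM). Between LL-MG and MG none of the 7 tested Tlr7 regions was called.

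Summed over the Tlr7 locus, LL-MDM had 28.1, 43.0 and 32.9 CPM against 27.2, 24.4 and 21.3 CPM in MDM. The libraries did not overlap (0.58 ± 0.20, adjusted p = 0.0478), and the call was lost without any of 8 single libraries, at 0.35 without LL-MDM 2 and up to 0.67 without MDM 1. LL-MG had 42.5, 49.7 and 33.8 CPM and MG 48.0, 26.1 and 30.7 CPM, with overlap and no call. The Tlr7 locus missed the threshold between MG and MDM (0.45 ± 0.20, adjusted p = 0.0794). Without MG 2 and MG 3, which leaves MG 1, the highest MG library here, the difference was 0.98.

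Tlr13, which senses bacterial ribosomal RNA in mice and is also X-linked, had called regions upstream, inside and beyond the gene, but not at its start. Region 4 (chrX:106149586-106149835, at 6436 bp from the start) had 6.92, 8.09 and 9.02 CPM in LL-MG, 6.02, 7.37 and 5.36 CPM in MG, 10.2, 8.78 and 7.52 CPM in LL-MDM and 4.26, 3.79 and 3.59 CPM in MDM. Region 7 (chrX:106164070-106164273), in the flank beyond the far end, had 5.19, 2.70 and 3.12 CPM in LL-MG, 4.96, 5.57 and 3.03 CPM in MG, 5.08, 5.59 and 1.96 CPM in LL-MDM and 1.19, 1.82 and 1.14 CPM in MDM. The MDM libraries were below the 9 others at both regions. Region 4 was higher in MG than in MDM (0.70 ± 0.24, adjusted p = 0.0143), lost without MG 2 (0.51) or MDM 2 (0.60) and with DESeq2. It was also higher in LL-MDM than in MDM (1.13 ± 0.24, adjusted p = 0.000435), and thinning to the smallest library ended both calls. Region 7 was higher in MG (1.64 ± 0.34, adjusted p = 0.000151) and in LL-MDM (1.58 ± 0.36, adjusted p = 0.000945), the second call being lost without LL-MDM 2 (1.01). Region 5, next to region 4, rose in both comparisons (1.37 ± 0.35 for MG over MDM and 1.22 ± 0.37 for LL-MDM over MDM), and these calls were lost without MG 2 (0.89) in the first, and without LL-MDM 2 (1.12), MDM 1 (1.16) or MDM 2 (1.06) in the second. Region 3 (chrX:106143049-106143292), which covers most of the printed window, stood at 5.46 ± 0.746 CPM in LL-MG, 5.64 ± 2.04 CPM in MG, 5.60 ± 1.71 CPM in LL-MDM and 5.42 ± 0.354 CPM in MDM (SD, n = 3 each), and was not called in any comparison. Upstream, region 2 was lower in MG than in MDM (-0.83 ± 0.35, adjusted p = 0.0445) and region 1 (chrX:106139536-106139906) was lower in LL-MDM than in MDM (-0.73 ± 0.22, adjusted p = 0.0107), though not without LL-MDM 2 (-0.77). The Tlr13 locus sum was not called in any comparison, with 0.16 ± 0.12 for MG over MDM and 0.25 ± 0.12 for LL-MDM over MDM.

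Tlr9, the receptor for CpG DNA, was the locus whose lipid difference itself differed between the lineages. The locus had 192, 179 and 163 CPM in LL-MG, 159, 95.9 and 107 CPM in MG, 142, 143 and 137 CPM in LL-MDM and 159, 145 and 174 CPM in MDM. LL-MG was above MG (0.59 ± 0.15, adjusted p = 0.0172), while LL-MDM lay below MDM without passing the test (-0.17 ± 0.14, adjusted p = 0.407), and the interaction, the lipid difference in microglia minus that in monocyte-derived macrophages, was 0.77 ± 0.20, adjusted p = 0.0327, where 8.83% of all loci were called, 5.87% with a positive and 2.95% with a negative value. The interaction rests on several libraries, since it was lost without any of 8 single ones (values from 0.67 to 0.78) and was 0.31, adjusted p = 0.185 without MG 2 and MG 3. The microglial difference was lost without LL-MG 1 (0.53), LL-MG 2 (0.58) or MG 3 (0.50), and was 0.15, adjusted p = 0.795 without MG 2 and MG 3. The Tlr9 locus was lower in MG than in MDM (-0.43 ± 0.14, adjusted p = 0.0227), although MG 1 overlapped MDM. That call was lost without MG 2 (-0.25), MG 3 (-0.33), MDM 1 (-0.43) or MDM 3 (-0.37), and the difference was 0.03, adjusted p = 0.871 without MG 2 and MG 3.

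Within Tlr9, region 1 (chr9:106221748-106222926) contains the printed window and had 96.9, 91.7 and 79.8 CPM in LL-MG, 79.7, 56.0 and 65.3 CPM in MG, 66.9, 67.1 and 61.2 CPM in LL-MDM and 74.4, 69.7 and 90.2 CPM in MDM. The lowest LL-MG library stood just above the highest MG library. Region 1 was higher in LL-MG than in MG (0.43 ± 0.13, adjusted p = 0.0326) and than in LL-MDM (0.46 ± 0.14, adjusted p = 0.0155), and these calls were lost without LL-MG 1 (0.40), LL-MG 2 (0.44), MG 2 (0.33) or MG 3 (0.46) in the first, and without LL-MG 1 (0.42), LL-MG 2 (0.46) or LL-MDM 3 (0.43) in the second. Without MG 2 and MG 3 the difference between LL-MG and MG was 0.16, adjusted p = 0.859. Region 4 (chr9:106230033-106230707), beyond the gene, also lies in the locus of Alas1, the first enzyme of haem synthesis, and holds 37.3% of the Tlr9 counts. It had 58.8, 55.3 and 57.9 CPM in LL-MG, 57.8, 35.9 and 30.1 CPM in MG, 56.7, 48.0 and 51.0 CPM in LL-MDM and 61.3, 56.0 and 70.1 CPM in MDM, and MG 2 and MG 3 were the lowest of the 12. Region 4 was higher in LL-MG than in MG (0.51 ± 0.17, adjusted p = 0.0448), a call lost without any of 10 single libraries (values from 0.37 to 0.59) and at -0.01, adjusted p = 0.993 without MG 2 and MG 3. In MG it stood lower than in MDM (-0.63 ± 0.15, adjusted p = 0.00119), but -0.10, adjusted p = 0.671 without MG 2 and MG 3. Without shared regions, the Tlr9 locus difference between MG and MDM was -0.23, adjusted p = 0.134.

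Region 3 of Tlr9 (chr9:106226285-106226484), inside the span at 3786 bp from the start, ran against region 4 in MG against MDM. It had 19.5, 12.1 and 8.32 CPM in LL-MG, 9.57, 12.5 and 10.3 CPM in MG, 6.77, 14.2 and 15.7 CPM in LL-MDM and 6.49, 6.96 and 7.19 CPM in MDM. The MDM libraries were at the low end, with LL-MDM 1 within their range. Region 3 was higher in MG than in MDM (0.67 ± 0.24, adjusted p = 0.0174), lost without MG 2 (0.53), MDM 1 (0.57) or MDM 2 (0.62), and higher in LL-MDM than in MDM (0.96 ± 0.24, adjusted p = 0.00247), lost without LL-MDM 2 (0.86).

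The regions of 1 locus often did not change alike. A test of whether the regions of a locus differ in their change (diffSpliceDGE of edgeR, added after seeing the data) called 7 of the 10 loci in MG against MDM, where 67.4% of all loci with 2 or more tested regions were called, and 7 in LL-MDM against MDM, where 48% were. Cd14, Tlr2, Tlr5, Tlr7, Tlr9 and Tlr13 were called in both, with Tlr6 in the first and Tlr3 in the second. At Cd14 and Tlr3 no single region differed from its locus in LL-MDM against MDM (smallest adjusted p = 0.0779 and 0.0907). Relative to its locus, Tlr5 region 5 had -2.92, adjusted p = 1.38e-07, in MG against MDM, and Cd14 region 6 had -1.84, adjusted p = 4.56e-07. Tlr7 region 6 stood 1.40 above its locus and region 4 at -1.59, both called. In LL-MDM against MDM, Tlr13 region 7 had 1.38, adjusted p = 0.000735, relative to its locus and Tlr13 region 1 had -0.94, adjusted p = 0.00197. Only Tlr5 was called in LL-MG against LL-MDM, where 31.4% were, and only Tlr1 in LL-MG against MG, where 26.2% were. In the interaction Tlr2, Tlr9 and Tlr13 were called (adjusted p = 0.0254, 0.0306 and 0.000774), where 27% were.

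**Figure D4:**
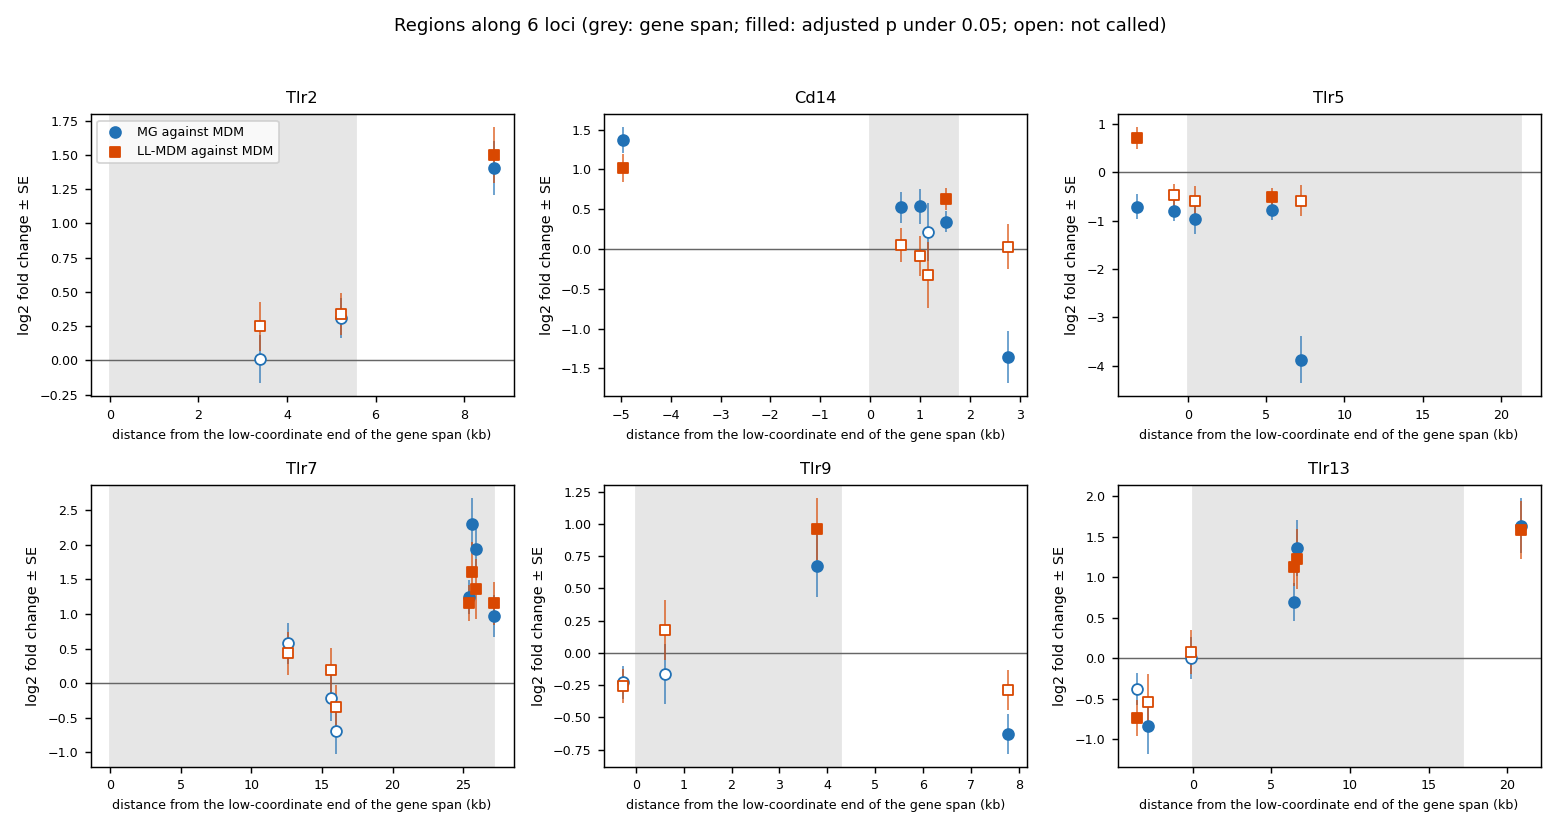
Log2 fold change with its standard error (y axis) of each tested region against its distance in kb from the low-coordinate end of the gene span (x axis; grey band, the span) at 6 loci, for MG against MDM (circles) and LL-MDM against MDM (squares); filled symbols are called. The called regions of Tlr7 lie together near the high-coordinate end, and in Tlr5 the fall at region 5 in MG is larger than at the other regions.

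The lipid difference was tested between the lineages at each region. The interaction was called at 5 of the 46 regions, where 10.9% of all tested regions were called, 4.56% with a positive and 6.34% with a negative value, and the median over all of them was -0.13. It was negative at Cd14 region 1 (-1.11 ± 0.25, adjusted p = 0.00396), Tlr2 region 3 (-0.91 ± 0.28, adjusted p = 0.0402) and Tlr13 region 7 (-1.91 ± 0.53, adjusted p = 0.0177), where LL-MDM exceeded MDM and the difference between LL-MG and MG was not called (-0.10 ± 0.18, 0.59 ± 0.20 and -0.32 ± 0.40). It was positive at Tlr9 region 1 (0.69 ± 0.19, adjusted p = 0.0161) and Tlr9 region 4 (0.80 ± 0.23, adjusted p = 0.0249). Cd14 region 1 kept its call under every alternative other than the groups by title. The calls of the others were lost in several settings. That of Tlr2 region 3 was lost with RLE scaling (-0.84, adjusted p = 0.0638), with unscaled totals (-0.82, adjusted p = 0.109), with loess offsets (-0.81, adjusted p = 0.0986), with DESeq2 (-0.86, adjusted p = 0.0854) and after thinning to the smallest library (-0.87, adjusted p = 0.162). Without MG 2 and MG 3 both Tlr9 calls were lost, at 0.41, adjusted p = 0.217, for region 1 and 0.28, adjusted p = 0.491, for region 4. DESeq2 also lost Tlr13 region 7 and thinning Tlr9 region 4. Among single libraries left out, those that ended a call gave the following values. The Tlr2 region 3 value ranged from -0.96 to -0.64 over 9 libraries, that of Tlr13 region 7 from -1.71 to -1.24 over 5, that of Tlr9 region 1 from 0.67 to 0.68 over 2 and that of Tlr9 region 4 from 0.66 to 0.87 over 8. The count was 2 without LL-MDM 2, LL-MDM 3 or LL-MG 2, 3 without MDM 1, MDM 3, MG 3, LL-MG 1 or LL-MG 3, and 9 without MG 1.

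The other genes of the pathway were counted from lists by role, at the level of loci. Each count is read against the share of all loci called, which was 20.4% higher and 20.6% lower in MG against MDM, 11.7% and 12.2% in LL-MDM against MDM, and 9.82% and 8.63% in LL-MG against MG. Of 16 accessory and trafficking genes, 6 were lower and 1 higher in MG than in MDM, including the further receptors Tlr8 (-1.61 ± 0.32; 1.93 ± 0.908 CPM in MG and 6.11 ± 0.692 CPM in MDM) and Tlr11 (-2.19 ± 0.35), the chaperone gene Cnpy3 (-0.62 ± 0.09) and the scavenger receptor Cd36 (-0.76 ± 0.11). With lipid load in monocyte-derived macrophages, 1 of the 16 was higher and 3 lower. Lbp, which carries lipopolysaccharide to Cd14, rose (1.06 ± 0.22), while Ly96, the partner of Tlr4, fell (-0.52 ± 0.11) and also fell in LL-MG against MG (-0.42 ± 0.12). In LL-MG, Slc15a3, an endosomal peptide transporter, and the protease gene Lgmn were higher than in MG (0.73 ± 0.16 and 0.52 ± 0.15), 2 higher and 1 lower of 16.

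Of 19 adaptor and kinase genes, 5 were lower in MG than in MDM, near the 20.6% of all loci, and the other 14 were not called. Traf6 (-0.73 ± 0.10), Ikbkb (-0.56 ± 0.13) and Irak2 (-0.43 ± 0.08) were among the lower. In LL-MDM against MDM, 2 were higher and 4 lower, and in LL-MG against MG 4 were higher and 2 lower. Ikbke, the gene of an interferon-pathway kinase, was higher with lipid load in both lineages (0.95 ± 0.16 in microglia and 0.57 ± 0.15 in monocyte-derived macrophages), and Ikbkb was lower in both (-0.61 ± 0.15 and -0.67 ± 0.13). Of 17 negative regulators, 4 were higher and 5 lower in MG than in MDM, near the 20.4% and 20.6% of all loci, with Tnip3 (-1.69 ± 0.11) and Sigirr (-1.21 ± 0.10), inhibitors of NF-kB and of receptor signalling, among the lower. Both were also lower in LL-MDM than in MDM (-0.98 ± 0.11 and -0.94 ± 0.11), where 3 of 17 were higher and 4 lower. In LL-MG against MG, 3 of 17 were higher and 2 lower. Of 12 transcription factors, 3 were lower in MG than in MDM (Irf7 at -0.56 ± 0.11, Rel and Irf1) and 2 in LL-MDM than in MDM (Irf7 and Rel), and the others were not called.

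Of 21 measured cytokine and other target genes, 6 were higher and 8 lower in MG than in MDM. The chemokine gene Ccl4 was among the higher (1.38 ± 0.13; 346 ± 82.0 CPM in MG and 134 ± 6.88 CPM in MDM), with the costimulatory genes Cd86 (-1.18 ± 0.12) and Cd80 (-0.90 ± 0.09) and the cytokine Il10 (-0.78 ± 0.09) among the lower. Cxcl1, a neutrophil chemokine, was the 1 gene of 21 higher in LL-MDM than in MDM (38.9 ± 6.08 CPM in LL-MDM and 16.4 ± 1.49 CPM in MDM; 1.24 ± 0.17), with 3 lower. In LL-MG against MG, 7 were higher and 3 lower, with Il1a (0.42 ± 0.10) and Ccl5 (0.67 ± 0.18) among the higher and Ccl4 (-0.53 ± 0.13) among the lower. Of 11 measured pattern receptors of other families, 7 were lower in MG than in MDM, where 20.6% of all loci were, and 4 not called, led by Clec7a (-1.82 ± 0.14) and Clec4e (-1.10 ± 0.24), lectin receptors for fungal and mycobacterial molecules. In LL-MDM against MDM, 4 were lower and 7 not called. The cytosolic peptidoglycan receptors Nod1 and Nod2 were higher in LL-MG than in MG (0.60 ± 0.09 and 0.38 ± 0.09), where 3 of 11 were higher and 1 lower. The median log2 fold changes of these lists in MG against MDM ran from -0.33 for the other pattern receptors to 0.06 for the negative regulators, against 0.01 for all loci. Neighbouring genes can share regions, as did 11098 of the 81229 regions assigned to a gene.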

How the data were processed

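The 12 ATAC-seq libraries share 1 deposited table of whole-number counts that the authors made, with 117835 regions on mm10 whose names join the peaks of the 4 groups, per the file headers. Nuclei were tagmented with Tn5 and amplified in 2 rounds of 9 cycles, and fragments of 150 to 700 bp were kept, per the labels' protocols. The submitters' processing notes name SAMtools 1.10, deepTools 3.5.1, Picard 2.12.0 and BWA 0.7.17-r1188. How peaks were called, duplicates handled and Tn5 cuts shifted is not given in these sources, and each of these can change low counts. Groups follow the column names. The titles give a mouse number, but with other groups for 8 libraries, so nothing ties the 3 libraries of a group to separate animals, and the p-values cover the spread between libraries, which may be technical.

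Regions were assigned to a locus by span plus 5 kb (GRCm38.p6 gene table, without exons and, for Tlr4, Tlr7 and Cd14, without a start). Coordinates are as the file gives them. The tests used edgeR 4.0.16 under R 4.3.3 (filterByExpr, TMM, glmQLFit robust, glmQLFTest, 1 model of 4 groups), on 77737 regions and on the sums of 15544 loci. Regions and loci have TMM factors of their own, so their CPM differ in scale. P-values were adjusted by Benjamini-Hochberg at 0.05. The tests were first run on counts simulated for MG against MDM alone. There DESeq2 made more false calls at loci than its nominal level, while the quasi-likelihood test of edgeR stayed near it. The simulation gave all features the same relative spread and changed few of them, all with higher counts, so these error rates may not hold for the real data. The other comparisons and the interaction were not simulated, and false calls of diffSpliceDGE were not measured. Alternatives were DESeq2 1.42.0, other scaling, no filter, pairwise fits, thinning, the title groups, replicate blocks and each library left out. Depth limits low regions, since 1 count is 0.860 CPM in LL-MDM 1 and 0.0528 CPM in MDM 2 before TMM.

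Named regions were, per member, the most accessible, the one nearest the start and up to 3 called ones with the smallest p, and pathway genes were up to 4 called ones per list and comparison. Other regions given with values (Tlr7 regions 3, 4 and 9, Tlr13 region 2 and Cd14 regions 2 and 3) were chosen after their values were seen. Whether their calls held in the alternatives was not followed. Members and lists were chosen with earlier results of these data known.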

Additional observations from a re-analysis of the deposited data

Results flagged for a closer look

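The interaction was called at 1 of the 10 loci and 5 of the 46 tested regions, near the 8.83% of all loci and 10.9% of all tested regions. There the lipid difference in microglia (LL-MG minus MG) differed from that in monocyte-derived macrophages (LL-MDM minus MDM) by the interaction test of edgeR. The values were 0.77 ± 0.20, adjusted p = 0.0327, for the Tlr9 locus, 0.69 ± 0.19, adjusted p = 0.0161, for Tlr9 region 1 and 0.80 ± 0.23, adjusted p = 0.0249, for Tlr9 region 4, where the difference was larger in microglia. They were -1.11 ± 0.25, adjusted p = 0.00396, for Cd14 region 1, -1.91 ± 0.53, adjusted p = 0.0177, for Tlr13 region 7 and -0.91 ± 0.28, adjusted p = 0.0402, for Tlr2 region 3, where the difference was larger in monocyte-derived macrophages. The 3 Tlr9 values rest on libraries MG 2 and MG 3, the lowest at Tlr9 region 4, and without them were 0.31, adjusted p = 0.185, for the locus, 0.41, adjusted p = 0.217, for region 1 and 0.28, adjusted p = 0.491, for region 4, and Tlr9 region 4 is shared with Alas1. Counts behind Tlr13 region 7 were 27 in LL-MG, 61 in MG, 54 in LL-MDM and 59 in MDM, summed over libraries, the fewest of the 5 regions.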

How the results depend on the processing

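Counts below are member regions (main 26, 6, 15, 3 and 5) and loci (main 4, 1, 3, 2 and 1) called in 5 comparisons, in the order MG against MDM, then LL-MG against LL-MDM, then LL-MDM against MDM, then LL-MG against MG, then the interaction. The share of all regions or loci called in the same setting is not given beside them. A changed count is therefore not shown to be particular to the members. With groups by sample title they were 0, 0, 3, 2 and 0 regions and 0, 0, 1, 1 and 0 loci, and the zeros had 0 at an unadjusted p under 0.05 by edgeR (DESeq2 was not run on these groups). With DESeq2, 17 regions were called in the first comparison and 3 in the interaction, and 2 loci in the second. Thinning to the smallest library gave 7, 2, 4 and 2 regions in the first 3 comparisons and the interaction, and 2 loci in the second. RLE and unscaled totals each gave 5 regions in LL-MG against MG, and unscaled totals 7 loci in MG against MDM. Fits on the 2 groups alone gave 0 regions and 0 loci in LL-MG against MG (7 and 3 at an unadjusted p under 0.05; DESeq2 on all groups called 2 and 2), and 5 loci in LL-MG against LL-MDM. Gene spans alone, shared regions left out and the region table's TMM factors each gave 2 loci in LL-MG against LL-MDM, and the last gave 8 loci in MG against MDM. Without MG 2 and MG 3 (chosen after seeing the data) LL-MG against LL-MDM had 11 regions and 4 loci, and LL-MG against MG 0 and 0 (3 and 1 at an unadjusted p under 0.05). Leaving out 1 library gave 21 to 29, 3 to 9, 6 to 19, 0 to 8 and 2 to 9 regions, and 3 to 6, 1 to 4, 1 to 3, 0 to 5 and 0 to 1 loci. The region factors move the median of all loci by 0.14 in MG against MDM, by -0.14 in LL-MG against MG and by -0.19 in the interaction, and unscaled totals move that of all regions to 0.12 in LL-MG against MG. The cause of these differences was not tested.

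Values reversed by title groups were, in MG against MDM, 0.038 (Tlr5 locus), 0.49 and 0.12 (Tlr5 regions 1 and 5), -0.054 (Tlr4 region 1), -0.031 and -0.11 (Tlr13 regions 5 and 7), -0.063 and -0.39 (Tlr7 regions 6 and 7) and 0.023 (Cd14 region 6). In LL-MG against LL-MDM they were -0.031 (Tlr9 region 1) and 1.03 (Tlr5 region 5), in LL-MDM against MDM 0.40 (Tlr3 region 2) and -0.65 (Tlr5 region 1), and in LL-MG against MG -0.12 (Tlr9 region 4) and -1.03 (Tlr5 locus, called there). For the interaction they were 0.0054 (Cd14 region 1) and 0.51 (Tlr13 region 7). Without MG 2 and MG 3 the Tlr9 locus had 0.028 in MG against MDM and Tlr9 region 4 -0.013 in LL-MG against MG. Beyond the title groups, 3 of 11 called locus values and 15 of 49 called values of named regions kept their call in every alternative, and 10 and 48 kept their sign. DESeq2 ended 13 of the 49 region calls and 0 of the 11 locus calls, and thinning ended 20 of the 35 region calls it could give and 4 of the 11 locus calls. The replicate block tests below were chosen after seeing the data. Column numbers fall into 3 sets of 4, 1 library of each group, though no label says that a set shares an animal, and 0 of 18 pairs within a set had deviations that correlated over 0.1 (from -0.069 to 0.093). With the sets as replicate block none of these 11 and 49 calls was lost, and the counts were 26, 6, 16, 4 and 7 regions and 6, 2, 3, 2 and 1 loci. With the title groups and the mouse number of the titles as replicate block the counts were 0, 0, 6, 3 and 0 regions and 0, 0, 3, 1 and 0 loci (of the zeros, 1 region in LL-MG against LL-MDM had an unadjusted p under 0.05 by edgeR). That fit reversed MG against MDM at Tlr5 locus (0.032), Tlr5 region 1 (0.47), Tlr4 region 1 (-0.056), Tlr13 region 7 (-0.040), Tlr13 region 5 (-0.051), Tlr7 region 7 (-0.34), Tlr5 region 5 (0.16), Cd14 region 6 (0.042), then LL-MG against LL-MDM at Tlr4 region 1 (-0.012), Tlr9 region 1 (-0.047), Tlr5 region 5 (1.11), Tlr6 region 4 (0.019), then LL-MDM against MDM at Tlr6 locus (-0.31), Tlr3 region 2 (0.40), Tlr5 region 1 (-0.62), then LL-MG against MG at Tlr5 locus (-1.04), Tlr9 region 4 (-0.12), then the interaction at Cd14 region 1 (0.028), Tlr13 region 7 (0.45).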
